A study of Mus musculus with 16 samples.

Results

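Oxidative phosphorylation genes encode the subunits of the respiratory chain and of ATP synthase. They were taken here as the genes whose symbols begin with Nduf followed by a, b, c, s or v (complex I), are Sdha to Sdhd (complex II), or begin with Uqcr (complex III), Cox4 to Cox8 (complex IV) or Atp5 (complex V), together with the mitochondrially encoded genes, whose symbols begin with mt-. The rule found 102 genes of the 14191 in both tables together, 89 of them nuclear and 13 mitochondrially encoded. The 8-week table holds 88 members, all nuclear, of 13715 genes. The reversal table holds 87 of 12922 genes, 74 nuclear and all 13 mitochondrially encoded. Both tables hold 73 of the members, so the nuclear genes of complex V are described at 8 weeks and the mitochondrially encoded genes after reversal.

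The measurements are bulk RNA sequencing of frozen livers from 16 mice in 4 groups of 4. All mice had received intraperitoneal carbon tetrachloride (CCl4), a toxin that injures hepatocytes, for 8 weeks. Wild-type (Mfap2+/+) and knockout (Mfap2-/-) mice were sampled at that time, and further mice of both genotypes were sampled once a further 4 weeks without the toxin had followed, a stage named reversal. Mfap2 encodes microfibril-associated glycoprotein-1 of the extracellular matrix, and the study asked for its role in experimental liver fibrosis. The labels name no Cre and no promoter for the knockout, and livers without CCl4 were not analysed here. FPKM was taken as the unit of the values, a count of fragments relative to the length of the transcript and the size of the library. Ratios between genes per length rest on that assumption, and how well it holds for short genes was not tested. Read depth is unknown.

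Complexes I and II pass electrons from NADH and succinate to ubiquinone, complex III passes them to cytochrome c, and complex IV passes them to oxygen. Complexes I, III and IV pump protons across the inner mitochondrial membrane, and complex V uses the return flow to make ATP. Complex II is built from nuclear genes alone, whereas the other complexes also need proteins read from mitochondrial DNA. The hepatocyte is rich in mitochondria, and the chain there serves gluconeogenesis, urea synthesis and fatty acid oxidation.

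Mfap2 was listed at 0 in all 8 knockout libraries. It stood between 0.902 and 3.07 FPKM in the wild-type livers at 8 weeks and between 0.17 and 0.47 FPKM after reversal (2-sided exact permutation p = 0.0286 at each stage, the smallest that 4 mice against 4 allow). Markers of other cell types were counted beside the members. Of 17 hepatocyte markers 15 were lower in knockout livers at 8 weeks, with a summed level of 58538 to 100672 FPKM in wild-type and 45866 to 71622 FPKM in knockout libraries, while all 13 stellate cell and myofibroblast markers were higher, with a summed level of 285 to 452 against 421 to 742 FPKM. The sums of both lists overlapped between genotypes, and 82.6% of all genes tested were higher at that stage. After reversal 14 of 17 hepatocyte markers were lower, with sums of 111437 to 150258 and 92749 to 148023 FPKM, and all 13 stellate cell markers were higher, with sums of 65.6 to 131 and 133 to 237 FPKM, beside 70.7% of all genes. No gene of these lists passed the test of the next paragraphs. In bulk tissue fewer cells of a type and less RNA per cell cannot be told apart, and the part of these markers in the results below was not tested.

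The 13 mitochondrially encoded genes are packed on a circular genome, and 3 pairs of them overlap. The sequences across these overlaps are shown because reads that fall there match the positions of both genes. They were read from the mm10 mitochondrial chromosome on the plus strand, with the shared bases in capitals and 20 bases on either side.
mt-Atp8 and mt-Atp6, chrM:7907-7989: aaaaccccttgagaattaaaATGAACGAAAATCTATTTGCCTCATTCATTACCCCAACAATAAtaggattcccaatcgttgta
mt-Nd4l and mt-Nd4, chrM:10147-10193: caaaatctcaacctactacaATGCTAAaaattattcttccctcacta
mt-Nd5 and mt-Nd6, chrM:13532-13585: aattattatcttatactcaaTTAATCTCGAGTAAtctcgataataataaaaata
The overlap is 43 bases for mt-Atp8 and mt-Atp6, 7 bases for mt-Nd4l and mt-Nd4, and 14 bases for mt-Nd5 and mt-Nd6, of which mt-Nd6 lies on the minus strand. The strand setting of the authors' counting is not given in the sources used here, so reads of mt-Nd5 and mt-Nd6 in the shared bases cannot be told apart.

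After reversal the mitochondrially encoded genes together made up 38.1%, 29.8%, 25.9% and 28.3% of the summed FPKM in wild-type mice 1 to 4. The knockout mice 1 to 4 stood at 23.5%, 32.4%, 37.5% and 25.6%. Wild-type mouse 1 and knockout mouse 3 were highest, and the genotypes overlapped throughout. mt-Atp8, of 204 bases, alone made up 25.2% to 32.7% of the mitochondrially encoded sum. Without mt-Atp8 the shares were 31.5%, 22.5%, 19.2% and 21.2% in wild-type mice 1 to 4. They were 17.1%, 25.8%, 30.4% and 19.3% in knockout mice 1 to 4. The order of the mitochondrially encoded genes per length was almost fixed. mt-Atp8, a small subunit of ATP synthase, ranked first in all 8 libraries with a mean of 81507 FPKM. mt-Co1, the catalytic subunit of complex IV, ranked second in all of them with 51856 FPKM, and mt-Cytb, the cytochrome b of complex III, came next in all of them with 27848 FPKM. mt-Nd4l, a complex I subunit, ranked last in all 8 libraries with 4013 FPKM.

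**Figure D1:**
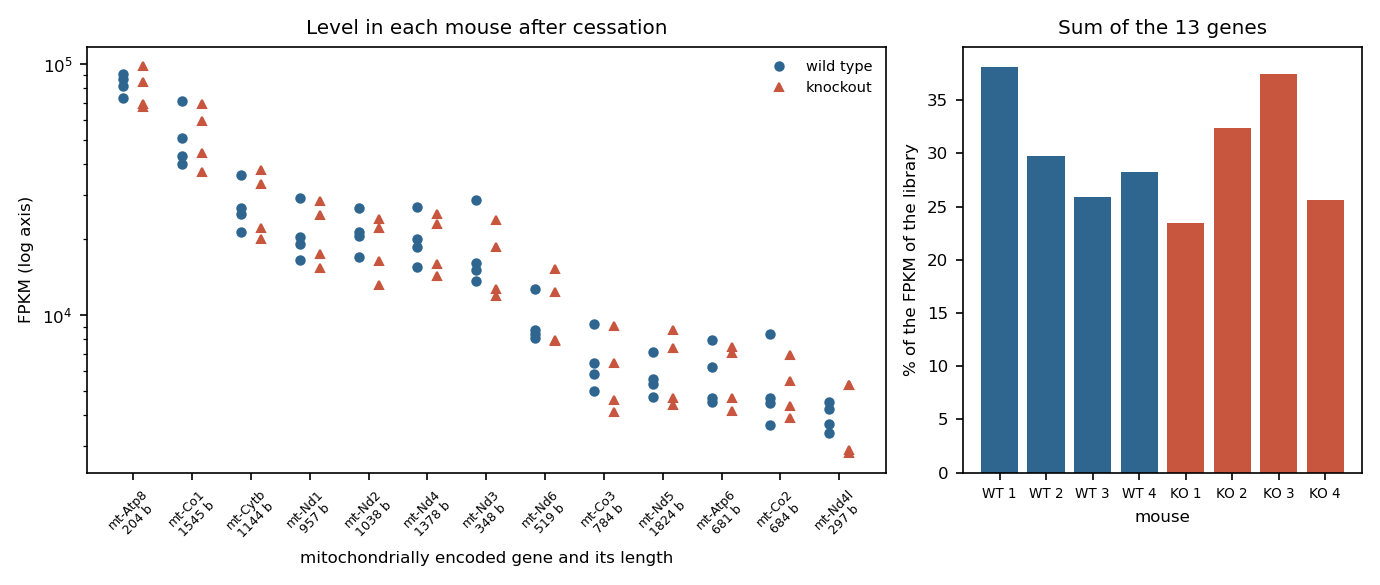
Left, the FPKM of each mitochondrially encoded gene after reversal on a log axis, ordered by mean level with the gene length in bases, for 4 wild-type (circles) and 4 knockout (triangles) mice. Right, the sum of the 13 genes as a percentage of the FPKM of each library, which runs from 23.5% to 38.1% with both genotypes spread over that range.

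Genes read from one transcript did not stand at one level. The mt-Atp8 and mt-Atp6 reading frames share a transcript, yet mt-Atp8 stood 11.4 to 17.5 times above mt-Atp6 per length. mt-Nd4l and mt-Nd4 also share a transcript, and mt-Nd4l stood at 0.167 to 0.229 of mt-Nd4. mt-Atp8 is 204 bases long and mt-Nd4l 297 bases, the shortest of the 13, and the part of gene length in these ratios was not tested. mt-Nd6, the gene read from the other strand, stood 1.51 to 1.79 times above mt-Nd5. Within complex IV, mt-Co1 was 8.54 to 11.3 times mt-Co2 and 7.40 to 9.64 times mt-Co3.

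None of the 13 differed between genotypes at an adjusted p under 0.05 (limma on log2(FPKM + 1), Benjamini-Hochberg over all 11032 genes tested), where 0% of all genes did. For mt-Co1 the wild-type mice 1 to 4 had 71490.2, 50676, 40085 and 42932 FPKM. In knockout mice 1 to 4 it stood at 37076, 59016, 69514 and 44059 FPKM. The high libraries, wild-type mouse 1 and knockout mouse 3, lay in both genotypes, and the means were 51296 ± 14187 and 52416 ± 14618 FPKM (SD, n = 4). mt-Nd3, another complex I subunit, stood at 28682 FPKM in wild-type mouse 1 and between 13615 and 16137 FPKM in the other wild-type mice, against 11936 to 23861 FPKM in the knockouts. Over the 13 genes the knockout minus wild-type difference ran from -0.20 (mt-Nd2) to 0.16 (mt-Nd6) log2 units, with 6 higher, 7 lower and a median of -0.01, and with median-ratio scaling 1 higher, 12 lower and a median of -0.15. The 95% interval of each of the 13 lay within 2-fold either way, as did that of 88.6% of all genes. The median within-group SD was 0.39 log2 units for these genes, 0.22 for the nuclear members and 0.27 for all genes tested. Leaving out single mice moved their median between -0.15 and 0.16.

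The nuclear members made up 1.66% to 1.92% of the summed FPKM of a library at 8 weeks, in a table with no mitochondrially encoded gene. After reversal they made up 1.76% to 2.02% of the whole sum and 2.30% to 3.27% of the sum of the nuclear genes, without the complex V genes. The shares of the stages therefore cover different genes and are not compared. At 8 weeks the subunits of the working complexes lay between 13.3 FPKM (Ndufc1) and 478 FPKM (Atp5b, the catalytic beta subunit of ATP synthase), whereas the complex I assembly factors, which are not part of the finished enzyme, lay between 4.55 and 15.8 FPKM. The heat map shows that the nuclear members moved together in some libraries of both genotypes and apart in others. In wild-type mice 1 and 3 and knockout mouse 4 at 8 weeks their median deviations were -0.05, -0.04 and -0.06 log2 units. The span between the lower and upper quartiles of the deviations was 0.40, 0.38 and 0.38. It was 0.16 to 0.30 in the other libraries of that stage. In wild-type mouse 1 after reversal the median was -0.59 for complex II and 0.10 for complex I. At 8 weeks the median member stood 0.18 log2 units above its mean over the 8 libraries in wild-type mouse 2 and 0.19 above it in knockout mouse 2. It stood 0.14 below in knockout mouse 3, where the hepatocyte gene Alb was also lowest of the 8 libraries at 16973 FPKM. Alb was highest in wild-type mouse 1, at 46316 FPKM, where the median member stood 0.05 below. In knockout mouse 2 Alb was at 28240 FPKM. The relation of Alb to the members was not tested.

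**Figure D2:**
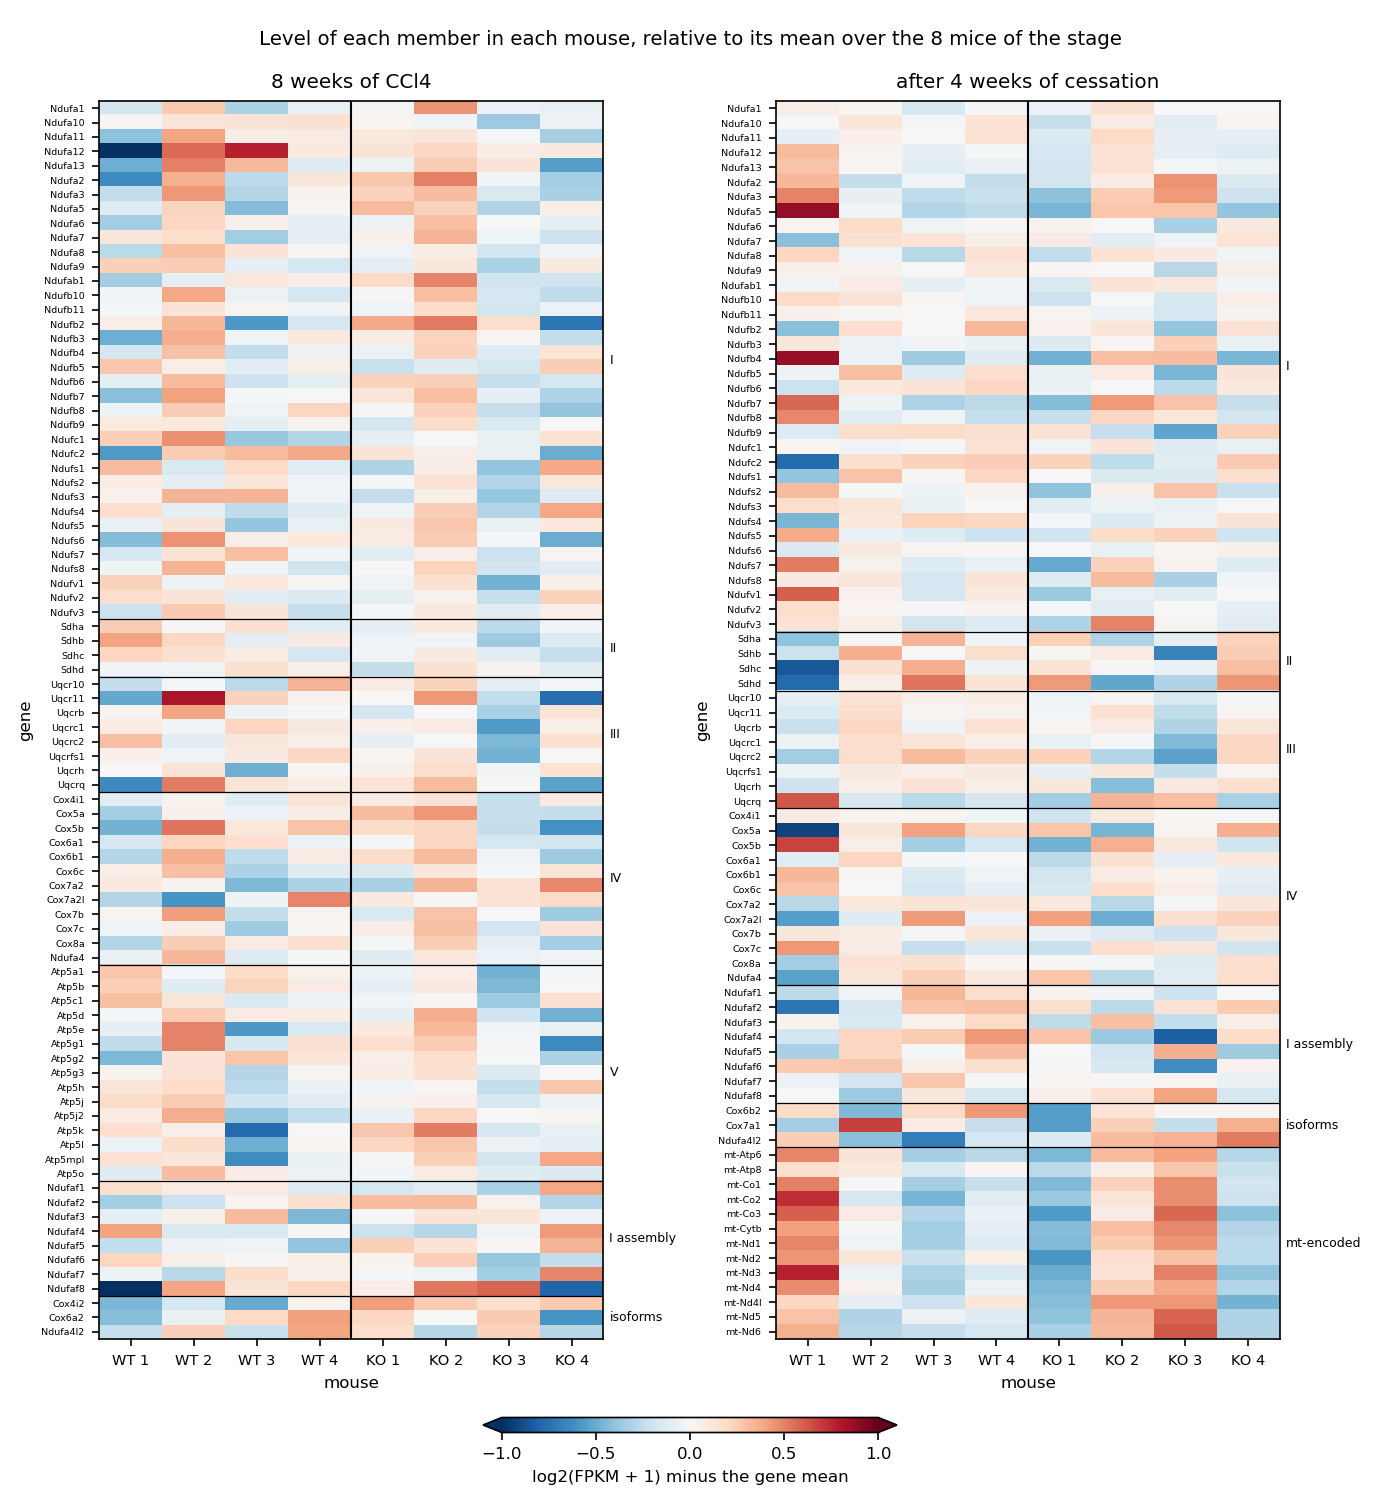
Each row is a member past the filter on low values, grouped by complex, and each column a mouse (WT wild type, KO knockout), and the colour gives log2(FPKM + 1) minus the mean of that gene over the 8 mice of the stage, limited to 1 either way. At 8 weeks wild-type mouse 2 and knockout mouse 2 are high for most members, and after reversal the mitochondrially encoded genes are high in wild-type mouse 1 and knockout mice 2 and 3.

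At 8 weeks no nuclear member passed the test. Of 88 listed, 86 had a mean of at least 0.5 FPKM and were tested, and 0 were called at an adjusted p under 0.05, beside 1 of 11928 genes (0.00838%). At an unadjusted p under 0.05 there was 1 member, beside 14.4% of all genes. In the knockout 38 members were higher and 48 lower, with a median difference of -0.04, whereas 82.6% of all genes were higher, with a median of 0.23. The counts are a description and depend on the scaling: with median-ratio scaling 2 of 86 were higher with a median of -0.34, beside a median of -0.02 for all genes, and with the total of the nuclear genes held constant 47 were higher with a median of 0.02. In wild-type mice 1 and 2 the median gene stood at -0.27 and -0.32 log2 units from its mean over the 8 libraries, against -0.01 to 0.28 in the other 6, and without this pair the median was -0.01 for the members and 0.04 for all genes. On log2(FPKM + 1) the 95% interval lay within 2-fold for 85 of 86 members, beside 78.7% of all genes. That scale understates fold changes of low genes. Cox4i2, counted as within 2-fold, differed by 1.18 log2 units with 0.1 FPKM added in place of 1.

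For the counts by complex, Ndufa4 was placed in complex IV. The 8 assembly factors (Ndufaf) and the 3 tested tissue isoforms, Cox4i2, Cox6a2 and Ndufa4l2, were kept apart from the complexes. By complex, the 8-week medians were -0.03 for complex I (16 higher, 20 lower), -0.14 for complex II (0 and 4), -0.17 for complex III (2 and 6), 0.03 for complex IV (7 and 5) and -0.04 for complex V (7 and 8). With median-ratio scaling all 36, 4, 8, 12 and 15 genes of these complexes were below 0, and with a constant nuclear total the medians of complexes I and V turned to 0.03 and 0.02. All 7 nuclear core subunits of complex I, most of which carry its flavin or iron-sulfur clusters or line the ubiquinone site, had a difference below 0, but 4 of 7 with a constant nuclear total, while the accessory subunits were split 16 to 13. In complex V, 4 of 5 subunits of the catalytic F1 head were below 0 and all 4 small membrane subunits above it, which turned below it with median-ratio scaling. The 4 lower F1 genes have principal transcripts of 1166 to 2471 bases, and the higher one, Atp5e, 421 bases. The small membrane subunits have 371 to 955 bases. Over the 86 members the Spearman correlation of the difference with this length was -0.36. The part of length in the split by complex was not tested. No single gene of these complexes passed the test.

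**Figure D3:**
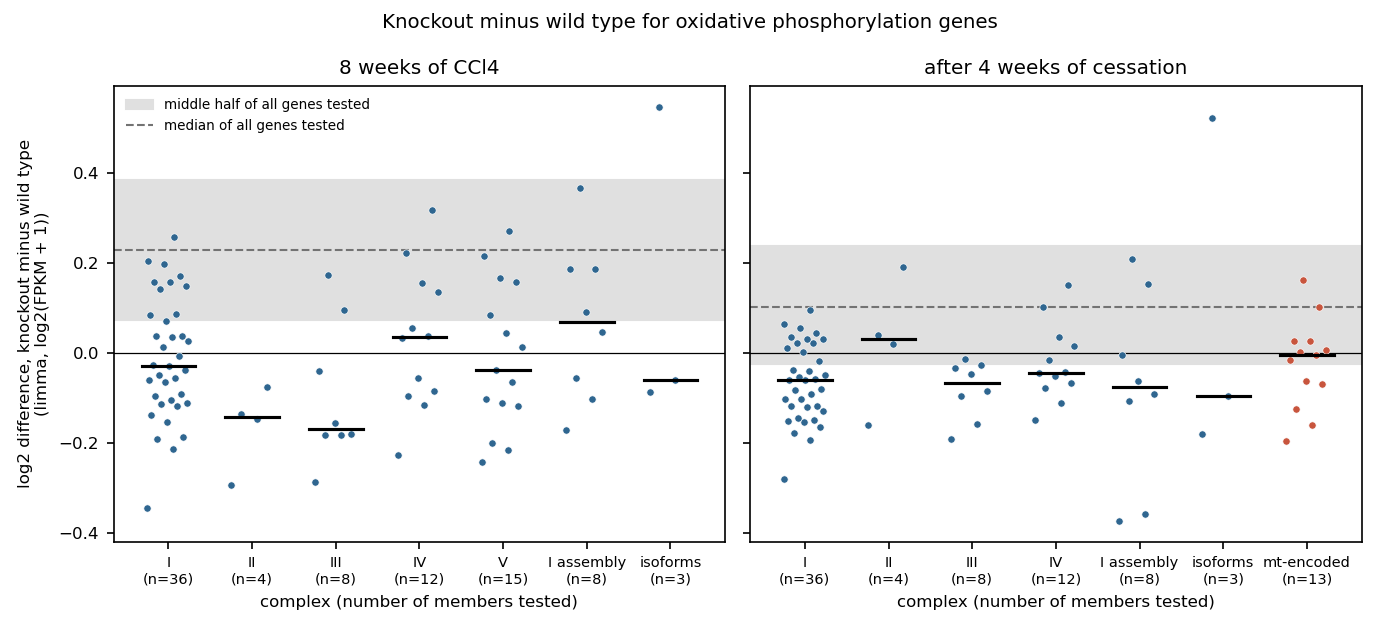
Knockout minus wild-type difference in log2(FPKM + 1) for each member tested, by complex, at 8 weeks (left) and after reversal (right), with a bar at the median of each group, red points for the mitochondrially encoded genes, a dashed line at the median of all genes tested and grey over their middle 50%. Most members lie below the dashed line at both stages, at 0.23 and 0.10, and none passed the test.

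Ndufs3, a core subunit of complex I, had the lowest difference at 8 weeks. Its FPKM was 68.5, 84.3, 84.4 and 64.8 in wild-type mice 1 to 4, and it was 56.2, 69.3, 50.8 and 60.5 in the knockouts. Knockout mouse 2 lay above wild-type mice 1 and 4, so the groups overlapped (-0.34 ± 0.20 log2, SE, limma adjusted p = 0.443). Sdhb, the iron-sulfur subunit of complex II, stood at 149 ± 21.8 and 121 ± 12.0 FPKM (SD, n = 4), also with overlap (-0.29 ± 0.21, limma adjusted p = 0.493). Atp5a1, the alpha subunit of the F1 head, stood at 299 ± 27.3 and 254 ± 39.2 FPKM (-0.24 ± 0.22, limma adjusted p = 0.565). Its partner in the head, Atp5b, held a ratio of 1.60 to 1.78 over Atp5a1 in every library.

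Among the higher members, Ndufaf5, a complex I assembly factor, did not overlap between the groups. It stood between 3.35 and 4.57 FPKM in wild-type and between 4.80 and 6.21 FPKM in knockout livers at 8 weeks (0.37 ± 0.20, limma adjusted p = 0.404). All 4 knockouts lay above all 4 wild types for 2 members, beside 6.29% of all genes, and all 4 lay below for 1 member, beside 0.612%. The member below was Ndufa10, an accessory subunit of complex I, at 65.1 to 71.2 FPKM in wild-type and 49.5 to 64.7 FPKM in knockout livers. Cox7a2, the broadly expressed form of a small complex IV subunit, stood at 122 ± 22.4 and 153 ± 34.7 FPKM (0.32 ± 0.24, limma adjusted p = 0.509), a difference of -0.0014 with median-ratio scaling. Ndufa12, an accessory subunit of complex I, was listed at 6.30 FPKM in wild-type mouse 1 and between 28.7 and 47.3 FPKM in the other 7 libraries of that stage.

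The largest difference at 8 weeks belonged to Cox4i2 (ENSMUSG00000009876, chromosome 2, 152754173 to 152765037 of mm10, plus strand), the isoform of complex IV subunit 4 known from lung and from cells that sense oxygen. The wild-type mice 1 to 4 had 0.310, 0.607, 0.268 and 0.846 FPKM. The knockout mice had 1.40, 1.15, 1.02 and 1.16 FPKM. All knockouts were above all wild types, at 0.55 ± 0.17 log2 units (SE), but the test across all genes was not passed (limma unadjusted p = 0.00679, adjusted p = 0.187). Without wild-type mouse 4 it passed (limma adjusted p = 0.0287), in a fit that called 1472 genes, 12.3% of 11925, and over the other alternatives the adjusted p went up to 0.891. The main isoform Cox4i1 stood 352 to 1599 times higher per length and at 462 ± 37.6 and 474 ± 51.7 FPKM in the genotypes.

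Cox4i2 is known from pericytes and smooth muscle as well, and genes of such cells were read in the same livers. The FPKM of Pdgfrb, a receptor of pericytes and stellate cells, was 2.93, 3.79, 6.72 and 5.73 in the 8-week wild types 1 to 4. In the knockouts the FPKM was 10.5, 6.71, 14.4 and 7.88. Rgs5, a pericyte marker, stood at 15.5 to 30.3 and 24.9 to 39.8 FPKM. Neither passed the test (adjusted p of 0.167 for Pdgfrb and 0.284 for Rgs5, limma), and 82.6% of all genes tested were higher at that stage. Among hypoxia genes, Ankrd37 and Egln3 differed by 1.22 and 0.71 log2 units at 8 weeks, and Vegfa and Bnip3 by 0.12 and -0.28. None of them passed either (limma adjusted p of 0.187, 0.274, 0.775 and 0.548). The part of the pericyte genes or of the hypoxia genes in the Cox4i2 values was not tested.

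After reversal Cox4i2 was near 0, at 0.50, 0.05, 0 and 0.08 FPKM in wild-type and 0, 0.85, 0.65 and 0.37 FPKM in knockout mice 1 to 4, and its mean was under the 0.5 FPKM needed for a test. Ndufa4l2 (ENSMUSG00000040280, chromosome 10, 127514967 to 127517154 of mm10, plus strand), a hypoxia-induced paralogue of the complex IV subunit Ndufa4, had the largest difference of that stage. The wild-type mice 1 to 4 had 3.47, 1.82, 1.33 and 2.33 FPKM. The knockout mice had 2.43, 3.67, 3.79 and 4.41 FPKM. Wild-type mouse 1 lay above knockout mouse 1, so the groups overlapped (0.52 ± 0.22 log2, limma unadjusted p = 0.0396, adjusted p = 0.575). At 8 weeks the groups stood at 4.01 ± 1.11 and 3.69 ± 0.914 FPKM, and the difference between the stages was 0.61 ± 0.32 (limma interaction, adjusted p = 1.00).

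**Figure D4:**
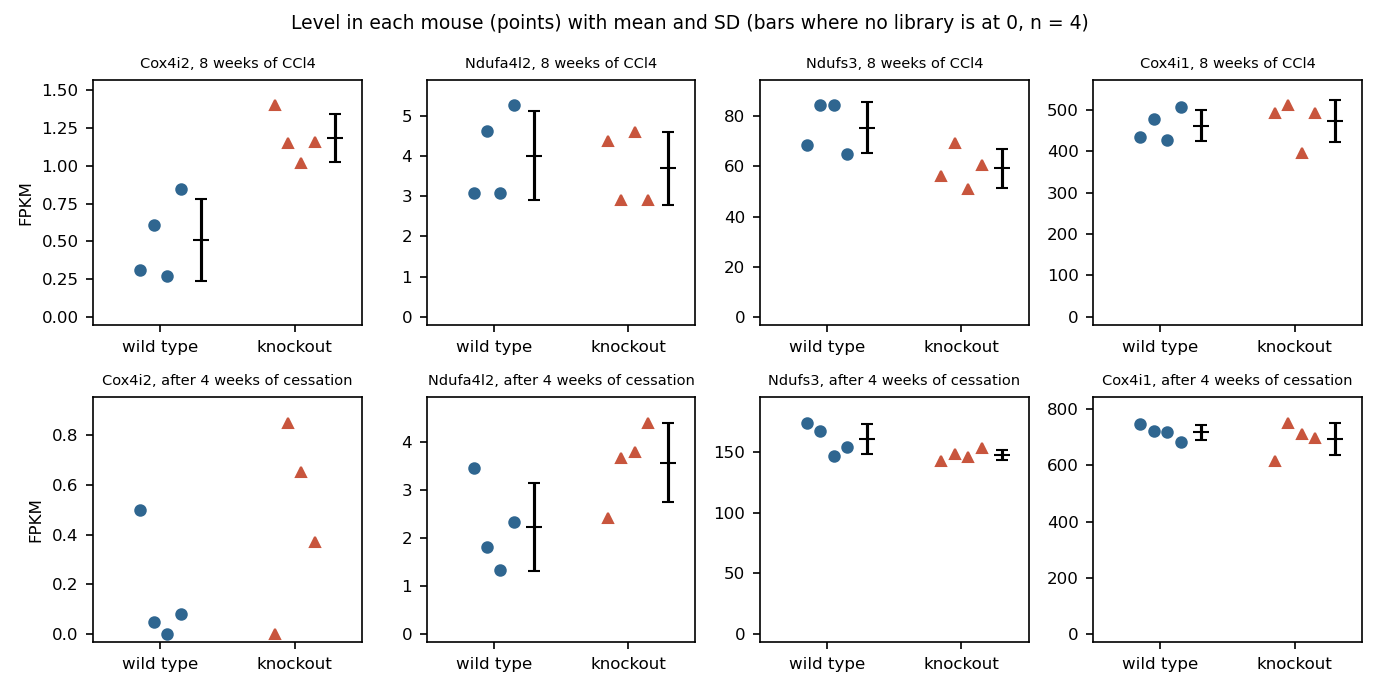
FPKM of Cox4i2, Ndufa4l2, Ndufs3 and Cox4i1 in each wild-type (circles) and knockout (triangles) mouse at 8 weeks (top) and after reversal (bottom), with the mean and SD of 4 mice where no library is listed at 0. Cox4i2 at 8 weeks is the only panel in which the genotypes do not overlap, at 0.268 to 0.846 and 1.02 to 1.40 FPKM.

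After reversal no member passed the test either. Of 74 nuclear members listed, 71 were tested and 0 called, beside 0 of 11032 genes (0%). At an unadjusted p under 0.05 there was 1 member, beside 933 genes or 8.46%. The split was 21 higher and 50 lower, with a median of -0.06, whereas 70.7% of all genes were higher, with a median of 0.10. With median-ratio scaling 5 were higher, with a median of -0.20, beside -0.01 for all genes. Without wild-type mouse 1 and knockout mice 2 and 3, the libraries with the most mitochondrially encoded RNA, 15 of 71 were higher with a median of -0.08, and the median of the 13 mitochondrially encoded genes was -0.21. As the libraries were picked by that same level, the -0.21 follows in part from the choice. The mitochondrially encoded share was 23.5% and 25.6% in the knockouts kept and 25.9% to 29.8% in the wild types kept. All 8 nuclear complex III genes and all 7 nuclear core subunits of complex I had a difference below 0 under each of the 4 scalings run. The scalings use the same mice and are not independent. As deposited, the complex III differences ran from -0.19 to -0.01 with a median SE of 0.17. Those of the core subunits ran from -0.28 to -0.06 with a median SE of 0.18. Of the mitochondrially encoded genes as deposited, mt-Cytb of complex III was above 0, as were 3 of 7 of complex I. Of the 4 complex II genes 3 were above 0, but 1 with median-ratio scaling and 2 with the others. On log2(FPKM + 1), which understates fold changes of low genes, the 95% interval lay within 2-fold for 70 of 71 members, beside 88.6% of all genes.

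Ndufaf6, a complex I assembly factor, had the lowest difference after reversal. Its FPKM was 15.4, 15.4, 13.2 and 14.3 in wild-type mice 1 to 4, and it was 12.6, 11.3, 7.88 and 13.1 in the knockouts. This was the only member with all 4 knockouts below all 4 wild types, beside 0.988% of all genes, and 0 members had all 4 above, beside 3.62% (-0.37 ± 0.17 log2, limma adjusted p = 0.594). Ndufv1, which holds the NADH site of complex I, had 62.4 ± 15.2 and 50.4 ± 5.56 FPKM in the genotypes (-0.28 ± 0.19 log2, limma adjusted p = 0.716). Ndufaf4, another assembly factor, had 21.7 ± 3.93 and 17.3 ± 6.06 FPKM (-0.36 ± 0.25, limma adjusted p = 0.737). Ndufaf8 stood at 29.7 ± 4.33 and 34.6 ± 5.91 FPKM (0.21 ± 0.17, limma adjusted p = 0.785). Sdhc, a membrane anchor of complex II, stood at 36.3, 73.4, 85.1 and 63.9 FPKM in wild-type and 72.6, 66.4, 63.2 and 81.7 FPKM in knockout mice 1 to 4. Wild-type mouse 1 was low for complex II, at a median of 0.59 log2 units below the mean of the 8 libraries, and the Sdhc difference of 0.19 ± 0.25 turned to -0.06 without it.

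Whether the genotype difference changed from 8 weeks to reversal was tested for the 69 nuclear members tested in both tables. None passed, beside 0% of 10647 genes, and 0 had an unadjusted p under 0.05 (limma interaction term), beside 2.76%. The difference was above 0 for 27 members and below it for 42, beside 30.8% above 0 among all genes, and with median-ratio scaling 54 of 69 were above 0 with a median of 0.14. Ndufa4l2 had the highest value and Ndufaf5 the lowest, at -0.46 ± 0.27.

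Several complex IV subunits have forms proper to striated muscle or other tissues, and these were low in all libraries. Cox6a1, the liver form, stood 252 to 1615 times above the muscle form Cox6a2 at 8 weeks, and Cox7a2 stood 102 to 1176 times above the muscle form Cox7a1. After reversal the last ratio was 24.8 to 69.1. Cox6b1 stood 154 to 598 times above the testis form Cox6b2 in the 5 libraries of the 8-week stage in which Cox6b2 was above 0. Cox8b, the form of muscle and brown fat, was at 1.27 FPKM in wild-type mouse 1 and 0.16 FPKM in knockout mouse 3 after reversal and listed at 0 in the other libraries of that stage. Of 21 striated muscle markers 7 were listed in each table, Cox6a2 and Cox7a1 among them and after reversal Cox8b as well. Their summed level at 8 weeks was 1.59 to 9.71 FPKM in wild-type and 6.23 to 9.04 FPKM in knockout livers. Of 8 brown fat markers 3 were listed, Cox7a1 among them and after reversal Cox8b as well. Both lists thus hold isoforms described here and are not independent of them. Among the 3 c-ring genes of complex V, which encode the same mature protein, Atp5g3 stood 1.47 to 2.96 times above Atp5g1 and 1.66 to 3.48 times above Atp5g2.

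The order of the members differed between the tables. Across the 69 nuclear members tested in both, the Spearman correlation of the mean levels was 0.58, a description across genes that are not independent. The median member was 1.23 log2 units higher in the reversal table, on log2(FPKM + 1), whereas the median of all 10647 genes was 0.29 lower. Ndufa3, an accessory subunit of complex I, stood 21.1 times higher in the reversal table, at 455 against 21.5 FPKM, and Uqcrq, a small subunit of complex III, 12.4 times higher, at 1459 against 117 FPKM. Ndufa11, another complex I subunit, stood at 0.243 of its 8-week level. Stage, table and library kit cannot be told apart here, and no level was tested between stages.

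**Figure D5:**
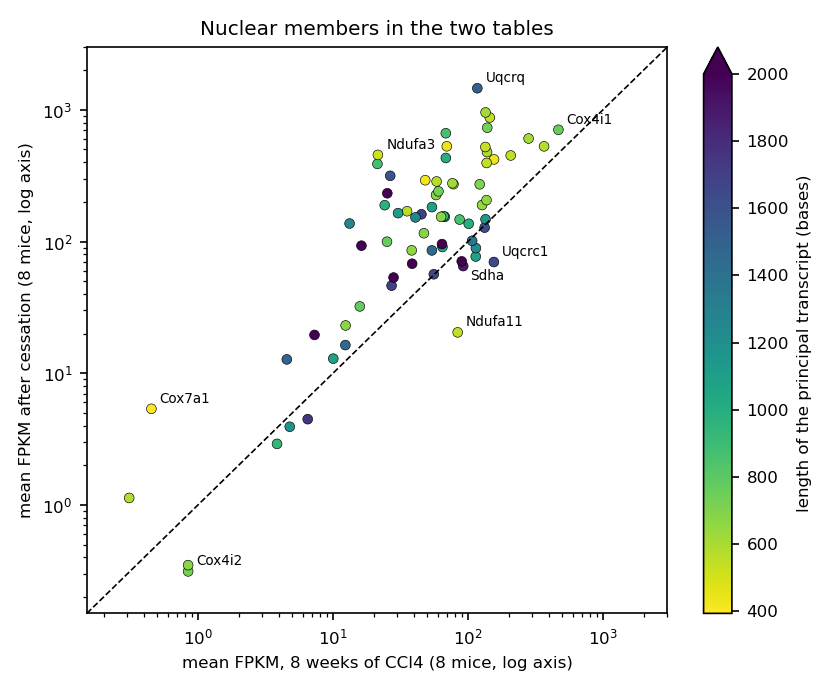
Mean FPKM of each nuclear member listed in both tables, over the 8 mice at 8 weeks (x) and the 8 mice after reversal (y), both on log axes, coloured by the length of the principal transcript in bases, with equality as a dashed line. Most points lie above the line, up to Ndufa3 at 21.1 times, and Ndufa11 lies below it at 0.243.

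The size of the correlation between this shift and transcript length depended on how length was defined. Over the 69 members the Spearman value was -0.29 with the length of the principal transcript, -0.44 with the median length of the coding transcripts and -0.18 with the union of the exons. For all genes the 3 values were -0.10, -0.15 and -0.04. The members are short, with a median principal transcript of 934 bases beside 2871 for all genes. Among genes of up to 600 bases the median shift was 1.49 for all 113 genes and 1.87 for the 14 members, and above 1500 bases it was -0.34 for 8905 genes and 0.77 for 16 members. Within a stage the genotype difference of the members also ran with length, at -0.36, -0.35 and -0.22 under the 3 lengths at 8 weeks and -0.22, -0.25 and -0.12 after reversal. For all genes the value with the principal transcript was 0.14 at 8 weeks, of the opposite sign, and -0.07 after reversal. The relation to length also differed between libraries within a genotype. Relative to its mean over the 8 libraries, the level of the members ran with the principal length at 0.41, -0.32, 0.41 and -0.12 in wild-type mice 1 to 4 at 8 weeks. In knockout mice 1 to 4 the values were -0.32, -0.43, -0.28 and 0.23. After reversal they lay between -0.20 and 0.24. The part of length in the genotype values was not tested.

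Of the 89 nuclear members 73 were matched by symbol to a RefSeq promoter (GRCm38.p6), 250 bases before to 50 after the start. The palindromic site of nuclear respiratory factor 1 (NRF1), a factor known to drive such genes, was searched on both strands, with any base allowed at the A of its centre (capitals in the sequences printed with this paragraph). It was found in 19 of 73 member promoters (26.0%), beside 10.3% of 11194 listed genes and 5.19% of all genes. The site was in 6 of 13 complex V promoters and 7 of 32 of complex I. The ETS core CCGGAAG was in 24.7% of member promoters beside 18.2% of listed genes, and the YY1 site AAGATGGC in 13.7% beside 4.82%. The CCAAT box was in 43.8% beside 42.7%, and TATAAA in 8.22% beside 9.76%. A match is a description and not a binding site. For a view of the site in 3 complexes, the site with A in the middle is shown in capitals, each sequence on the strand of its gene.
Atp5g2 (complex V), chr15:102671048-102671124, minus strand: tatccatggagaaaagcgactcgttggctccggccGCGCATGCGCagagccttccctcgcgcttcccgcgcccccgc
Cox6a1 (complex IV), chr5:115349076-115349155, minus strand: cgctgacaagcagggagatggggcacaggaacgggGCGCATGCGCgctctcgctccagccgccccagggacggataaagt
Ndufa11 (complex I), chr17:56717667-56717746, plus strand: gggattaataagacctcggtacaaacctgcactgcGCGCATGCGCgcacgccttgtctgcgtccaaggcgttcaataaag
The site ends 33 bases before the annotated start in Atp5g2, 153 in Cox6a1 and 51 in Ndufa11. At 8 weeks these genes stood at means of 96.6, 366 and 83.9 FPKM, and none differed between genotypes past the threshold.

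Other genes of the pathway were counted in lists of known genes, and none passed the test at either stage. The counts stand beside 82.6% of all genes higher at 8 weeks and 70.7% after reversal. Of 27 carriers and dehydrogenases that feed electrons to the chain, 11 were higher and 16 lower in the knockout at 8 weeks and 10 and 16 after reversal. Prodh, proline dehydrogenase, stood at 26.9 ± 6.41 and 14.9 ± 2.73 FPKM at 8 weeks without overlap (-0.80 ± 0.22, limma adjusted p = 0.149). Of 19 genes of the tricarboxylic acid cycle, 8 were higher and 11 lower at 8 weeks and 5 and 14 after reversal. The assembly factors of complexes II to V were split 24 to 10 and 25 to 9, and other complex I assembly factors 6 to 4 and 4 to 4.

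Among genes that express the mitochondrial genome, the direction was counted in the same way. Of 78 mitochondrial ribosomal proteins 64 were higher and 14 lower at 8 weeks and 55 and 23 after reversal, and of 38 genes of mitochondrial DNA replication, transcription and RNA handling 24 were higher and 14 lower at each stage. All 76 cytosolic ribosomal proteins were higher at 8 weeks, with a median of 0.26, close to the 0.23 of all genes, and 67 of 76 after reversal. Of the regulators of oxidative phosphorylation genes 11 of 12 were higher at 8 weeks and 7 of 13 after reversal. Ppargc1a, a coactivator that drives mitochondrial biogenesis, was the exception at 8 weeks, at 2.36 and 1.67 FPKM (-0.31 ± 0.20, limma adjusted p = 0.473). Of the higher regulators at 8 weeks, Hcfc1 and Nfe2l2 had the smallest p. They differed by 0.68 ± 0.27 (limma adjusted p = 0.278) and 0.51 ± 0.22 (limma adjusted p = 0.310). Import and membrane genes were higher in 27 of 35 and 12 of 33, and mitochondrial stress genes in 11 of 15 and 7 of 13. Hypoxia and glycolysis genes, a list that includes the member Ndufa4l2, were higher in 20 of 24 and 16 of 23.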

How the data were processed

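RNA of 16 mouse livers was read through the values the authors deposited, 1 table per stage, which were taken as FPKM; the headers name no unit, and TPM over a filtered gene set was not excluded for the reversal table. HISAT, Cufflinks and the build mm10 are named, per the submitters' processing notes. Versions, annotation and strand setting: not given in the sources used here. Per the labels' protocols the 8-week libraries used a NEBNext Ultra kit and the later ones either this kit or one named VAHTS Universal. The summed FPKM of a library ran from 428142 to 478062 at 8 weeks and from 878889 to 959698 after reversal, read depth is unknown and no counting interval is given.

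The test took genes whose mean in a table reached 0.5 FPKM, as log2(FPKM + 1), which understates changes of low genes, with limma 3.58.1 in R 4.3.3 (trended, robust empirical Bayes, 2-sided, Benjamini-Hochberg over all genes tested, threshold 0.05). An interaction term compared the stages. No label states that mouse numbers pair the libraries, and the main fits used no pairing. The steps were tested on simulated data. The members and lists were chosen with earlier results of these data known. Members were named by smallest p in each direction and from a fixed panel; all 18 lists were counted. The other marker lists were macrophage and monocyte (14 of 15 higher at 8 weeks; 14 of 16 rows after reversal, where 1 symbol has a pair of rows), endothelial (9 of 9; 8 of 9), erythroid (7 of 7; 0 of 6), striated muscle (2 of 4; 2 of 5) and brown fat (1 of 2; 0 of 2), with 0 genes called. The striated muscle and brown fat lists include complex IV isoforms that are also members. Transcript lengths and positions came from GENCODE for mm10. The length was first the median of the coding transcripts and was replaced after its result was seen, because that median counts annotated fragments; all 3 lengths tried are given. Small subunits have processed pseudogenes, and how reads shared with them were counted is likewise not stated there.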

Additional observations from a re-analysis of the deposited data

Results flagged for a closer look

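In 10 of 172 groups of 4 mice the value of 1 mouse stood far from the other 3, where chance flags about 1 in 20 groups. At 8 weeks, knockout mouse 3 was low for Cox4i1 at 397.2 FPKM (others 493 to 512) and for Uqcrc1 at 103.6 FPKM (others 160 to 163.5). After reversal, wild-type mouse 1 was high for mt-Nd3 at 28681.7 FPKM (others 13615 to 16137), for mt-Nd6 at 12646.7 FPKM (others 8113 to 8756), for Cox4i2 at 0.5 FPKM (others 0 to 0.08) and for Cox8b at 1.27 FPKM (others listed at 0), and low for Cox7a2 at 168.5 FPKM (others 221 to 226). Wild-type mouse 3 was low for Ndufs8 at 79.87 FPKM (others 96.1 to 98.7). Knockout mouse 1 was high for Cox6a2 at 0.69 FPKM (others 0.34 to 0.36), and knockout mouse 3 for Cox8b at 0.16 FPKM (others listed at 0).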

How the results depend on the processing

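The number of members called stayed at 0 under the alternatives run, except without wild-type mouse 4 at 8 weeks, where Cox4i2 was called and its difference was 0.65; over single mice left out the count ran from 0 to 1 at 8 weeks and stayed at 0 after reversal and in the difference between stages. Median-ratio scaling gave 2 higher members and a median of -0.34 at 8 weeks, 5 and -0.20 after reversal, and 54 and 0.14 for the difference between stages, and turned Cox7a2 at 8 weeks to -0.0014. Quantile normalization gave 25 higher members at 8 weeks, and a median relative to all genes of -0.080 at 8 weeks and -0.083 after reversal. A constant nuclear total gave 15 higher members in the difference between stages. Without wild-type mice 1 and 2 the relative median at 8 weeks was -0.048, and without all the doubted libraries that of the difference between stages was -0.10. Over single mice left out the relative median ran from -0.36 to -0.11 at 8 weeks (main value -0.27), from -0.23 to -0.13 after reversal and from -0.056 to 0.20 for the difference, the number of higher members from 29 to 49, from 18 to 26 and from 19 to 40, and the median from -0.08 to 0.04, from -0.11 to -0.03 and from -0.10 to 0.04. Sdhc after reversal ran from -0.059 to 0.34. The causes were not tested. Same-numbered mice correlated at -0.44 to 0.37 at 8 weeks and -0.66 to 0.37 after reversal. No label pairs them, and so few values cannot exclude a pairing. With a replicate block 0 members were called at either stage, and the smallest limma adjusted p was 0.259 at 8 weeks and 0.655 after reversal. Read depth is unknown, so precision rests on the 4 mice of a group.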
